A study of Mus musculus with 16 samples.

Results

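Of 16 tumors profiled in the series, 7 were primary lung adenocarcinomas, and these fall into 4 whose mouse also gave a profiled metastasis (tumors 18, 22, 24 and 31, of mice 1 to 4) and 3 whose mouse did not (tumors 14, 15 and 17, of mice 5 to 7). All came from p53R172H∆g/+ K-rasLA1/+ mice, so that both groups share every labelled allele: a knock-in mutant p53 allele and a latent oncogenic K-ras allele that is switched on by spontaneous recombination in single cells. Each mouse gave 1 primary tumor, tumor 15 was from a female and the other 6 were from males, and ages and treatments are not in the sources used here. The remaining 9 tumors were metastases from mice 1 to 4. They took no part in the main fit and are set beside the primary tumors as values. They did enter the fits over all 16 tumors that are given as alternatives. The labels say which mice gave a profiled metastasis, not which mice had one, so mice 5 to 7 are not labelled as free of metastases. Below, values of single tumors are intensities in the order 18, 22, 24 and 31 for mice 1 to 4, then 14, 15 and 17 for mice 5 to 7, and differences are log2 values of mice 1 to 4 minus mice 5 to 7 with values under 1 raised to 1.

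In mice with the latent K-ras allele, lung adenocarcinomas grow from the distal airway and alveolar epithelium, and many retain surfactant proteins of alveolar type 2 cells, the secretory cells of the alveolus. Mutant p53 is known to favor spread of such tumors to the mediastinum and distant organs. A dissected tumor also holds macrophages, endothelium and stroma, and in such bulk RNA fewer cells of a type cannot be told apart from less RNA per cell. On this array 1 gene is often read by several probe sets, each a set of short oligonucleotides near a different stretch of its transcripts, so that their agreement can be counted gene by gene.

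The control probe sets separated the same 2 groups. The 18 probe sets for bacterial and phage transcripts that are spiked into each hybridization had geometric mean intensities of 473.0, 210.9, 320.6 and 290.1 in tumors 18, 22, 24 and 31, and of 1302, 1068 and 875.4 in tumors 14, 15 and 17. Every one of the 18 was higher in each tumor of mice 5 to 7 than in any of mice 1 to 4, a 3.44-fold difference in the mean. The 3′ control probe set of Gapdh, a glycolytic enzyme, went the other way, with 6030, 5087, 6716 and 5351 against 2575, 3907 and 2688, which is 1.92-fold. The ratio of 3′ to 5′ Gapdh signal, a common sign of RNA integrity, was 1.08, 1.00, 1.13 and 1.04 against 1.34, 1.18 and 1.15. For each of these 3 measures the groups did not overlap, and an exact two-sided permutation test gave p = 0.0571, the smallest that 35 splits of 7 tumors allow (0.0761 after Benjamini-Hochberg adjustment over the 4 measures tested). The fourth, the actin 3′ to 5′ ratio, gave p = 0.514 in the same exact test. The median intensity was at most 84.01 on these 7 arrays. Whether a tumor's mouse gave a profiled metastasis therefore cannot be told apart from the level of these controls on its array, and this holds for every difference described here. Tumors of mice 1 to 4 also resembled each other more closely (Pearson r across all probe sets 0.9522 to 0.9691 over 6 pairs) than tumors of mice 5 to 7 (0.9343 to 0.9417 over 3 pairs), and pairs between the groups gave 0.9247 to 0.9466 over 12 pairs.

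**Figure D1:**
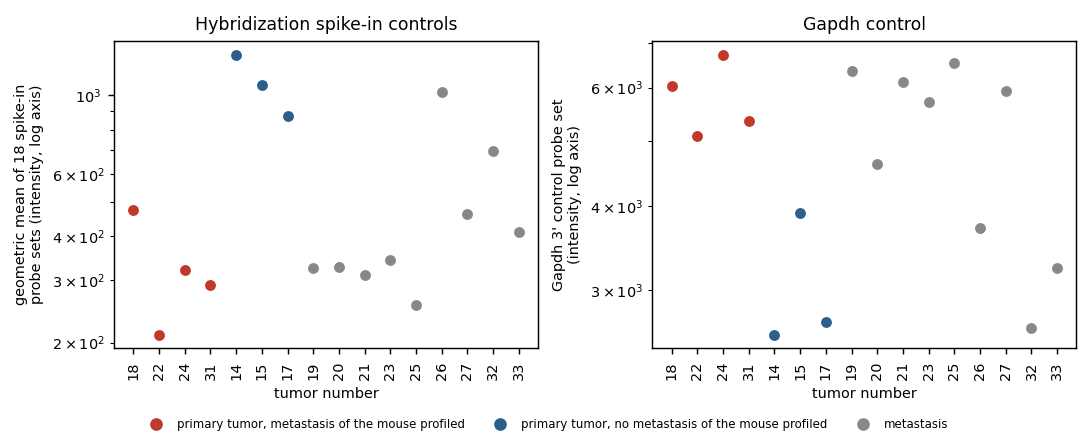
Intensity (log axis) of the spike-in controls (left, geometric mean of 18 probe sets) and of the Gapdh 3′ control (right) on the array of each of the 16 tumors, 1 point per array. The 3 primary tumors of mice 5 to 7 have spike-in levels of 875.4 to 1302, above all 4 of mice 1 to 4 (210.9 to 473.0), and among the metastases tumors 26 and 32 have the highest, 1024 and 695.9.

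Of 22626 probe sets, 231 (1.02%) passed an adjusted p of 0.05 in limma, 155 higher in mice 1 to 4 (0.685%) and 76 lower (0.336%). At the study's own threshold of an unadjusted p under 0.01 there were 1902 (8.41%), of which 1316 were higher (5.82%) and 586 lower (2.59%). The median difference over all probe sets was 0.06 and 55.4% were above 0. In 25 of the 231 both group means lay below an intensity of 24.3, the 25th percentile of the whole table. The 231 calls rest on all 7 tumors together. Without tumor 18, 24, 31 or 15 limma called 0, without tumor 22 it called 1, without tumor 14 it called 6 and without tumor 17 it called 42, while between 3694 and 4499 probe sets then had an unadjusted p under 0.05, against 4668 with all 7. A fit over all 16 tumors with the spike-in level of each array as a covariate, chosen after seeing the data, called 1 probe set, which was not among the 231, and 325 at p under 0.01. The slope of that covariate rests partly on tumors 26 and 32, both from mediastinal lymph nodes. Because its levels do not overlap between the 2 groups of primary tumors, this fit cannot separate group from array level. Its lower counts, here and below, therefore do not show whether a difference would remain on arrays of equal level.

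The called probe sets were then read gene by gene. They named 193 genes, of which 49 have 1 probe set on the array and 144 have several. In 71 of these 144 genes (49.3%) all probe sets had the same sign, and in 73 at least 1 pointed the other way. Over all 4956 genes with several probe sets the share with 1 sign was 44.4%. In 65 of the 144 (45.1%) a second probe set had an unadjusted p under 0.05 in the called direction, and in 19 one reached it in the opposite direction. Over all 4956 genes, taken from the probe set of smallest p, these counts were 424 (8.56%) and 178. The 144 were chosen for having a called probe set, which the 4956 were not, so the shares are not alike. Of single probe sets 20.6% reached it in either direction. Only 10 genes had 2 or more called probe sets. When all probe sets of a gene were averaged first, 6 of 12393 genes passed: Cfi and Stk11ip were higher in mice 1 to 4, and Sftpc, P2ry14, Cphx3 and A530016L24Rik were lower. Of these 6, only Sftpc and Cphx3 have more than 1 probe set, and 3 (Stk11ip, Cphx3 and A530016L24Rik) had an averaged intensity of at most 11.5 in every primary tumor.

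Among genes higher in mice 1 to 4, Ywhaq and Ctsz were called on several probe sets and agreed on all. Ywhaq, the theta form of the 14-3-3 adaptor proteins that bind phosphorylated partners, was higher on 7 of 7 probe sets. Its leading probe set read 1431, 1156, 1562 and 1580 against 474.0, 381.4 and 563.9, a difference of 1.61 ± 0.19 (SE, limma adjusted p = 0.0360), and the other 6 differed by 0.52 to 1.11. The lowest tumor of mice 1 to 4 thus had over 2 times the level of the highest of mice 5 to 7. Ctsz, the lysosomal protease cathepsin Z, was higher on 3 of 3, with 480.9, 628.4, 884.9 and 750.4 against 240.3, 191.8 and 210.8 on the leading one (1.65 ± 0.23, limma adjusted p = 0.0404).

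Wars, the tryptophanyl-tRNA synthetase of the cytosol and an interferon-inducible gene, was higher on 4 of 4 probe sets, 3 of them called. The difference was between 1.20 and 1.52 on 3 probe sets whose means in mice 5 to 7 exceed 200, for example 640.8, 707.2, 657.1 and 1058 against 262.8, 252.5 and 267.1. On the fourth it was 3.67 ± 0.46 (limma adjusted p = 0.0378), with 83.8, 62.2, 92.4 and 150.6 against 10.8, 3.63 and 9.63, so the largest difference of this gene was read where the signal of mice 5 to 7 was near the bottom of the scale. Eif5, which triggers GTP hydrolysis at the start codon, was higher on 4 of 4 probe sets, 2 of them called (1.71 ± 0.23 and 1.07 ± 0.13), and the brightest of the 4 differed by 0.38 ± 0.16. Tcf25 was also higher on 4 of 4, but only 1 was called (1.77 ± 0.22).

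Several of the highest genes have a single probe set, where agreement cannot be asked. Cfi, complement factor I, the protease that cleaves C3b and C4b, read 976.0, 494.1, 580.0 and 587.1 against 107.3, 66.0 and 80.2, a difference of 2.94 ± 0.28 (limma adjusted p = 0.0299). Cdkn2a, the locus of the cell cycle inhibitors p16Ink4a and p19Arf, read 88.4, 87.3, 172.0 and 132.2 against 30.95, 21.89 and 28.44 (2.10 ± 0.29, limma adjusted p = 0.0387). Neither gene overlapped between groups. Bag6, a chaperone for tail-anchored and misfolded proteins, differed by 2.63 ± 0.31, and Hid1, a protein of secretory granule formation, by 2.13 ± 0.27. Jtb (1.87 ± 0.30) and Gnb2, a G protein beta subunit (1.77 ± 0.28), also have 1 probe set each. Tgfb1, the ligand that arrests epithelial growth and promotes a mesenchymal state, read 225.4, 199.4, 226.1 and 203.4 against 109.7, 93.8 and 110.9 (1.03 ± 0.13, limma adjusted p = 0.0378). The probe set of its receptor Tgfbr2 that was called differed by 2.02 ± 0.31, but at the brightest Tgfbr2 probe set, with 844.7, 753.5, 1056 and 756.3 against 1055, 830.0 and 696.9, the groups overlapped.

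Among genes lower in mice 1 to 4, Malat1 was lower on 5 of 5 probe sets. This long noncoding RNA is retained in nuclear speckles, and its leading probe set read 642.6, 716.1, 936.1 and 816.1 against 2682, 3463 and 2432 (−1.88 ± 0.19, limma adjusted p = 0.0299). Its other 4 probe sets differed by −0.95, −0.73, −0.67 and −0.18, so the direction was shared and the size was not. Secisbp2l, an RNA-binding protein related to the selenocysteine insertion factor, was lower on both probe sets, with 114.9, 113.9, 116.4 and 126.2 against 519.6, 361.0 and 381.5 on the called one (−1.82 ± 0.16) and −0.97 ± 0.20 on the other. Zfp825, a zinc finger protein, was called on both of its probe sets (−1.56 ± 0.15 and −1.34 ± 0.21). Tspan8, a tetraspanin of epithelial membranes, was called on 2 of 4 (−1.81 ± 0.27 and −1.10 ± 0.17), and its brightest probe set differed by −0.19 ± 0.17.

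In several other genes of the lower group, the called probe set differed by more than the rest. For Sftpc, surfactant protein C, the peptide that marks alveolar type 2 cells, the called probe set read 44.9, 27.7, 91.0 and 48.0 against 2837, 2864 and 901.6 (−5.33 ± 0.54, limma adjusted p = 0.0299). The second Sftpc probe set, far brighter, read 8556, 8418, 4802 and 7037 against 9964, 7622 and 10320 (−0.39 ± 0.24, limma adjusted p = 0.410), and there the groups overlapped. Both pointed downward, but only one of them set the groups apart. Aplnr, the apelin receptor of endothelium, read 75.4, 70.6, 40.3 and 67.6 against 353.1, 327.2 and 216.9 on one probe set (−2.25 ± 0.28) and differed by −0.48 ± 0.23 on the other. Rgs5, a regulator of G protein signaling found in pericytes, differed by −2.25 ± 0.35 on the called probe set and by −0.04 to −0.57 on 3 others. Cnot4, a ubiquitin ligase, was lower on 5 of 5 probe sets, by −2.36 ± 0.24 on the called one and by −0.14 to −0.36 on the other 4. Mxd3, Atp7a, Rbfox2, Celf4 and Tlr3 differed by −1.73 to −2.94 on the called probe set and had no other probe set called. A second probe set of Rgs5 (−0.57) and of Celf4 (−0.58) was past an unadjusted p of 0.05.

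**Figure D2:**
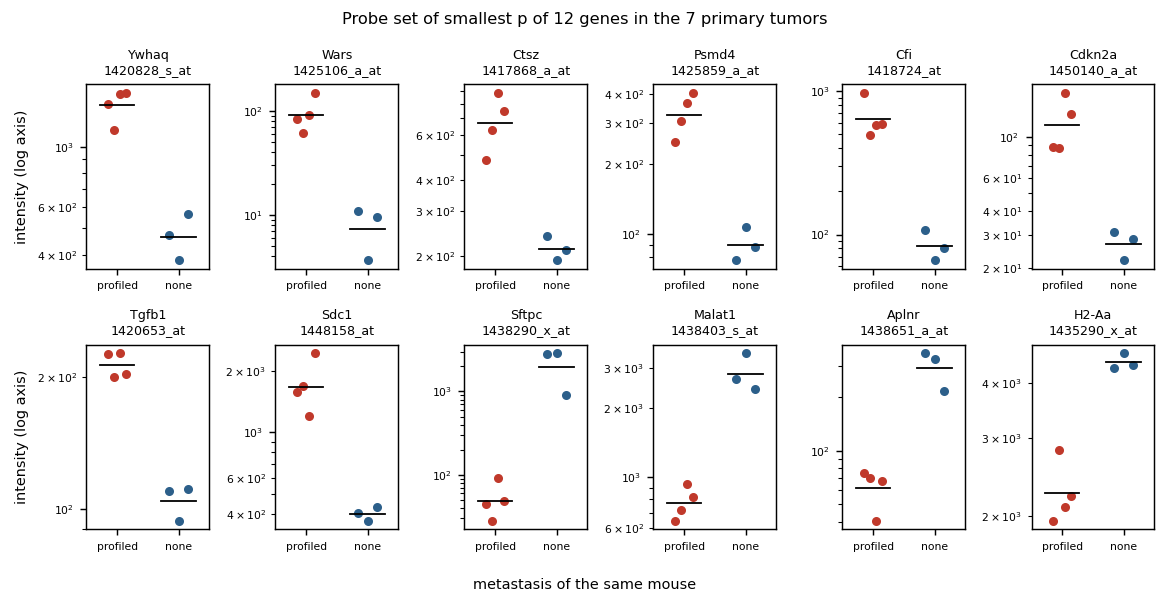
Intensity (log axis) of 12 genes in the 7 primary tumors, each at its probe set of smallest p, with the 4 tumors of mice 1 to 4 (metastasis profiled, red) and the 3 of mice 5 to 7 (none profiled, blue); each point is a tumor and the bar is the geometric mean. The groups do not overlap in any panel, which was also so at 20% of all probe sets, and the scale differs between panels.

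Some called genes had bright probe sets with opposite signs. M6pr, the receptor that carries mannose-6-phosphate-tagged enzymes to lysosomes, read 381.8, 379.6, 388.9 and 380.7 against 173.2, 186.2 and 233.5 on the called probe set (0.97 ± 0.14), and 979.6, 897.8, 853.4 and 1141 against 1453, 2043 and 1462 on its brighter one (−0.76 ± 0.18). The groups were apart on both, in opposite directions. Sdc1, the epithelial heparan sulfate proteoglycan syndecan-1, read 1578, 1681, 1210 and 2437 against 402.0, 367.7 and 431.3 on the called probe set (2.07 ± 0.24). Of its other 3, 2 differed by 0.99 ± 0.18 and 0.64 ± 0.27 and the last by −0.51 ± 0.17. Csnk1d, a casein kinase of the circadian clock, was called on 2 probe sets (2.36 ± 0.34 and 1.42 ± 0.20), while its 2 brightest differed by −0.24 ± 0.13 and −0.12 ± 0.14. Api5, an inhibitor of apoptosis, spanned 1.41 ± 0.20 to −0.93 ± 0.27. Luc7l2, a splicing factor, was called at −2.01 ± 0.27 and had 2 probe sets above 0. In M6pr, Sdc1 and Api5 a probe set of the opposite sign had an unadjusted limma p under 0.05. For these genes 1 direction does not describe the gene. In Csnk1d and Luc7l2 no probe set of the opposite sign reached that p, so a reversal was not shown for them.

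**Figure D3:**
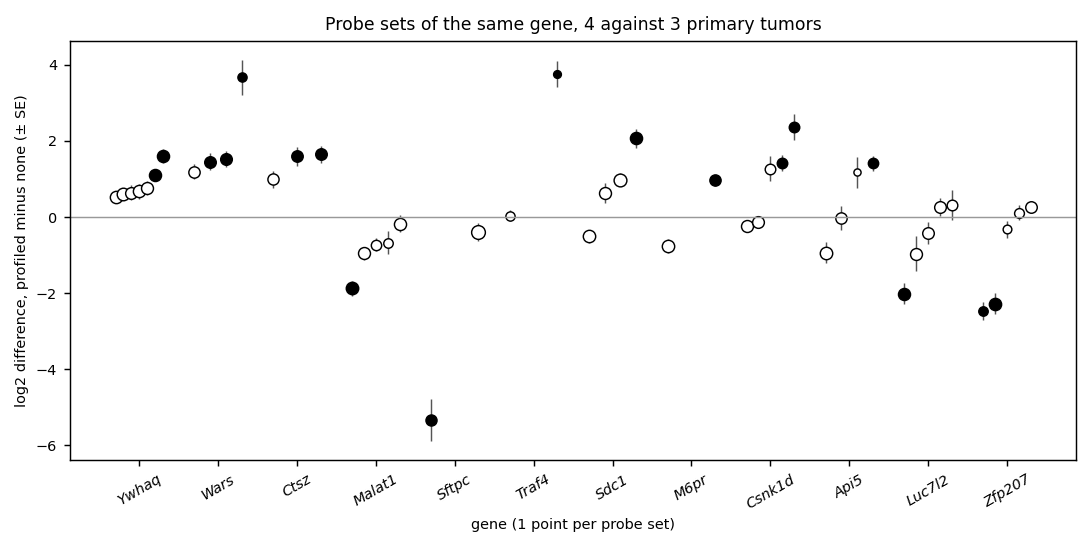
Log2 difference (mice 1 to 4 minus mice 5 to 7, ± SE) of every probe set of 12 genes, 1 point per probe set, with larger points for brighter probe sets and filled points for an adjusted p under 0.05. Ywhaq, Wars and Ctsz lie wholly above 0 and Malat1 wholly below, Sftpc has −5.33 beside −0.39, Traf4 has 3.76 beside 0.04, and Sdc1, M6pr, Csnk1d, Api5, Luc7l2 and Zfp207 have points on both sides.

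Gene lists were described with each gene at its brightest probe set, so the choice did not depend on the difference. On that basis 99 of 12393 genes (0.799%) passed the adjusted threshold, 1466 were higher and 867 lower at an unadjusted p under 0.05 (18.8% together), and the median difference was 0.05. The 43 lists hold 814 genes, 102 of which are not measured under a single-gene probe set. No test was made of any list, and the threshold for members below is the unadjusted p under 0.05 except where a gene is said to have been called.

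The proteasome is the barrel-shaped protease that degrades ubiquitin-tagged proteins. All 25 measured subunits were higher in mice 1 to 4, 14 of them past the threshold, with a median of 0.55. The count past the threshold was 10 to 13 with 1 tumor left out, 10 after centring arrays on their medians and 0 with the spike-in covariate, where 18 of 25 were higher and the median was 0.20. In the 20S core, Psma6 read 648.1, 886.4, 1090 and 753.6 against 474.6, 475.0 and 443.7 (0.84 ± 0.20, 4 of 4 probe sets higher). Psma4 differed by 0.90 ± 0.26, and the catalytic subunits Psmb7, Psmb6 and Psmb5 by 0.80 ± 0.24, 0.64 ± 0.27 and 0.63 ± 0.18. In the 19S cap, Psmd2 was called, with 517.4, 574.4, 505.0 and 580.8 against 254.1, 283.9 and 320.0 (0.93 ± 0.14, limma adjusted p = 0.0426), and the ATPase Psmc3 differed by 1.11 ± 0.24. Psmd4, the ubiquitin receptor of the cap, was called on 2 of 3 probe sets (1.85 ± 0.21 and 0.87 ± 0.13) and differed by 0.27 ± 0.13 on the brightest. Psma1, Psma5, Psmb1, Psmb4 and Psmd11 each had at least 1 probe set pointing the other way, and that of Psmb1 was past the threshold (−0.73 ± 0.28).

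Proteasome genes are known to be induced together by the factors Nrf1 and Nrf2 through antioxidant response elements. Their promoters are shown here because the subunits shared a direction. A search of both strands for the core letters TGACNNNGC, over the 250 bases before and 50 after the start (RefSeq, GRCm38.p6), matched 3 of the 21 proteasome genes that have a promoter entry (14.3%), against 14% of 27025 genes. The promoters of the catalytic subunits Psmb5 (chr14:54617946-54618245, minus strand) and Psmb6 (chr11:70525107-70525406, plus strand) hold the match in capitals.
Psmb5: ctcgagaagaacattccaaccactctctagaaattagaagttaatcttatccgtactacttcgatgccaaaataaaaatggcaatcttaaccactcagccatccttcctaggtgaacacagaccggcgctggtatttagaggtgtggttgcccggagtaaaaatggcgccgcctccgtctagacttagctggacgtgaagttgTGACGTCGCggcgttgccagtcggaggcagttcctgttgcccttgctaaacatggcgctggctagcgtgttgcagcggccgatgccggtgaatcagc
Psmb6: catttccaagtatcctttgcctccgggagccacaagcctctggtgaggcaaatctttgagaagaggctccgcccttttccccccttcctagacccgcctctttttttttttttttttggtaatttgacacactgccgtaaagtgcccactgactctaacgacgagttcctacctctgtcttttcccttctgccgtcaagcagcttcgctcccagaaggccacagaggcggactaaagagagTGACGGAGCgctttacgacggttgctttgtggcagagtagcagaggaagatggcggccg
The third gene with a match was Psmc6. These letters describe the window and were not tested as binding sites.

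Lysosomal genes were split, with 21 of 29 higher and 10 past the threshold, and 8 lower with 2 past it (median 0.24). Cathepsin A (Ctsa) was called, with 489.8, 464.3, 716.8 and 471.5 against 206.3, 185.4 and 163.5 (1.52 ± 0.20, limma adjusted p = 0.0378), as was Ctsz above. Lgmn, the asparagine-specific protease legumain, read 358.0, 497.8, 627.9 and 727.1 against 191.5, 172.7 and 196.4 (1.52 ± 0.25) and just missed the adjusted threshold (limma adjusted p = 0.0513). Cathepsin L (Ctsl) differed by 1.10 ± 0.33, cathepsin D (Ctsd) by 0.87 ± 0.22 and prosaposin (Psap) by 0.78 ± 0.21. Tpp1 (−0.51 ± 0.14) and cathepsin C (Ctsc, −0.50 ± 0.17) were past the threshold in the other direction, and the brightest members, Npc2 and Ctsh, differed by 0.11 each. With 1 tumor left out 8 to 11 members were past the threshold and higher, and with the spike-in covariate 0 were.

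Ribosomal proteins of the cytosol tended upward, with 19 of 22 higher, 9 of them past the threshold, and 1 lower past it (median 0.28, or 0.16 with the spike-in covariate). Rplp0, a protein of the ribosomal stalk, was called with 3220, 2884, 3045 and 2974 against 1511, 1445 and 1844 (0.93 ± 0.14, limma adjusted p = 0.0426). The exception, Rpl27a, read 494.8, 335.0, 650.2 and 439.2 against 1110, 1993 and 1082 (−1.52 ± 0.31), and its only other probe set, near background, differed by 0.30 ± 0.52. Ribosomal protein genes have many processed copies in the genome, so their probe sets are less certain. Oxidative phosphorylation genes had no common direction, with 16 of 28 higher and 12 lower (median 0.05). Past the threshold were 9 higher, led by the complex I subunit Ndufb5 (1.25 ± 0.29) and the ATP synthase alpha subunit Atp5a1 (0.84 ± 0.24), and 4 lower, led by Ndufa1 (−0.77 ± 0.27) and Uqcrb (−0.62 ± 0.17). The probe sets of Atp5a1 and Uqcrb disagreed, with −1.15 ± 0.26 on another of Atp5a1 and 1.46 ± 0.28 on the other of Uqcrb. In the spliceosome list 21 of 40 were higher and 19 lower, with 9 and 4 past the threshold. Snrpb, a core protein of the small nuclear ribonucleoproteins, was called at 1.09 ± 0.12, with 840.9, 760.4, 860.8 and 810.4 against 384.7, 406.8 and 359.3, whereas Luc7l2 and Malat1 of the same list were called lower.

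Antigen presentation genes are given by class. Of 10 class I genes 9 were higher (median 0.39), but the brightest, H2-K1, H2-D1 and B2m, differed by 0.63 to 0.64 with unadjusted limma p of 0.0623, 0.0632 and 0.0836. Only the proteasome activator Psme1 (0.41 ± 0.12) and the immunoproteasome subunit Psmb10 (0.63 ± 0.19) were past the threshold. Of the class II genes 5 of 9 were higher. H2-Aa was called lower on 1 probe set, with 1950, 2819, 2103 and 2221 against 4333, 4664 and 4403 (−0.99 ± 0.16, limma adjusted p = 0.0496), but on its second the difference was −0.04 ± 0.25. H2-Eb1, with 1 probe set, differed by −0.74 ± 0.15, and Cd74, the invariant chain that pairs with class II molecules, by 0.18 ± 0.21. The macrophage list held members on both sides, with 11 of 18 higher and 7 lower, 4 and 2 of them past the threshold (median 0.19). The complement genes C1qb, C1qa and C1qc, made mainly by macrophages, differed by 1.83 ± 0.38, 1.80 ± 0.44 and 1.52 ± 0.46, with C1qb at 204.0, 256.0, 606.5 and 294.5 against 74.2, 111.2 and 80.6. Csf1r, the receptor for macrophage colony-stimulating factor, read 532.7, 665.2, 765.1 and 748.1 against 1232, 963.2 and 868.5 (−0.59 ± 0.19), and only 1 of its 3 probe sets was lower. None of these complement or receptor genes was called after adjustment.

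Genes of cell division lay on both sides. In the mitotic list 20 of 35 were higher, with 4 past the threshold upward and 3 downward. The median was 0.08, between −0.07 (without tumor 14) and 0.22 (without tumor 17) with 1 tumor left out, and −0.016 after quantile normalization. Bub1, a kinase of the spindle checkpoint, differed by 1.44 ± 0.52 and cyclin B2 (Ccnb2) by 0.99 ± 0.30. Mki67, the proliferation antigen, went the other way, with 53.4, 84.1, 95.2 and 53.9 against 97.0, 128.3 and 133.8 (−0.77 ± 0.27). Of 29 replication genes 20 were higher, with 5 past the threshold, and 9 lower, with 2 past it. Orc6, a subunit of the origin recognition complex, was called at 0.97 ± 0.15, and the helicase subunit Mcm7 was higher on 4 of 4 probe sets (1.06 ± 0.22 on the brightest). Among 28 p53 targets, 13 were higher and 15 lower, with 2 and 5 past the threshold. Ccng1 was lower on 3 of 3 probe sets (−0.72 ± 0.15), Zmat3 differed by −0.77 ± 0.17, and Cdkn1a, the inhibitor p21, by −0.33 ± 0.43. RAS-MAPK output genes were 8 higher and 9 lower, with 2 and 3 past the threshold (median −0.0018). The feedback inhibitor Spry2 had the largest difference, with 506.1, 357.8, 219.7 and 196.8 against 1100, 843.3 and 1184 (−1.79 ± 0.36), followed by Phlda1 (−1.08 ± 0.28), and neither was called after adjustment (limma adjusted p = 0.0629 and 0.105).

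Lists that describe epithelial and mesenchymal state were spread to both sides. Of 29 epithelial genes 19 were higher (median 0.20), with 2 past the threshold in each direction, and Krt8 and Krt18, keratins of simple epithelium, differed by 0.48 ± 0.36 and 0.10 ± 0.43. Of 19 mesenchymal genes 10 were higher and 9 lower (median 0.11, and between −0.04 without tumor 24 and 0.55 without tumor 31). Beside Tgfb1 only Lgals1 was past the threshold upward (1.78 ± 0.61), and 2 genes were past it downward. Vim, vimentin, a filament protein of mesenchymal cells, read 777.2, 1556, 5636 and 1165 against 592.5, 697.8 and 526.7 (1.48 ± 0.64, limma adjusted p = 0.253), and it was highest by far in tumor 24. Tumor 24 was also the highest or lowest of the 7 on some whole lists. Relative to the mean of the 7 tumors, its mean over the mesenchymal list was 0.98, over the gastric and intestinal list 1.70 and over the alveolar type 2 list −1.10. The other 6 tumors lay between −0.37 and 0.05, −1.25 and 0.77, and −0.03 and 0.49. These lists were picked after their values were seen. In the outlier check given below, which covers mice 1 to 4 only, 0 of 43 list means were flagged. Of 14 alveolar type 2 genes 4 were higher, 1 of them past the threshold, and 10 lower, 2 of them past it. The median was −0.35, and between −0.54 and −0.13 with 1 tumor left out. Lysozymes Lyz1 and Lyz2 differed by −1.08 ± 0.29 and −0.62 ± 0.26, but Sftpb, surfactant protein B, overlapped between groups at 7429, 7578, 2993 and 9078 against 5437, 5667 and 7035. In the gastric list the iron exporter Slc40a1 was called lower (−1.25 ± 0.16), and its second probe set differed by −0.16 ± 0.31. Matrix protease genes had 1 of 20 past the threshold (Plau, −0.61 ± 0.21), with 12 higher and 8 lower (median 0.21). Chemokines had 1 of 22 (Cxcl2, −0.72 ± 0.19), with 10 higher and 12 lower (median −0.0055). Endothelial genes had 2 of 18, Eng (0.65 ± 0.17) and Egfl7 (0.47 ± 0.16), but 7 were higher and 11 lower (median −0.18). Among markers of other cells that a dissected tumor could hold, the members past the threshold were 0 of 9 for neutrophils, 2 of 15 for T cells, 3 of 10 for B and plasma cells, 2 of 7 for NK and cytotoxic cells, 2 of 8 for smooth muscle, 2 of 20 for fibroblasts and 0 of 4 for mesothelium, against 18.8% of all genes. Among the lists not described one by one, medians ran from −0.36 (platelets, 3 of 6 lower past the threshold) to 0.45 (mesothelium). The part of such cells in the differences was not tested.

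**Figure D4:**
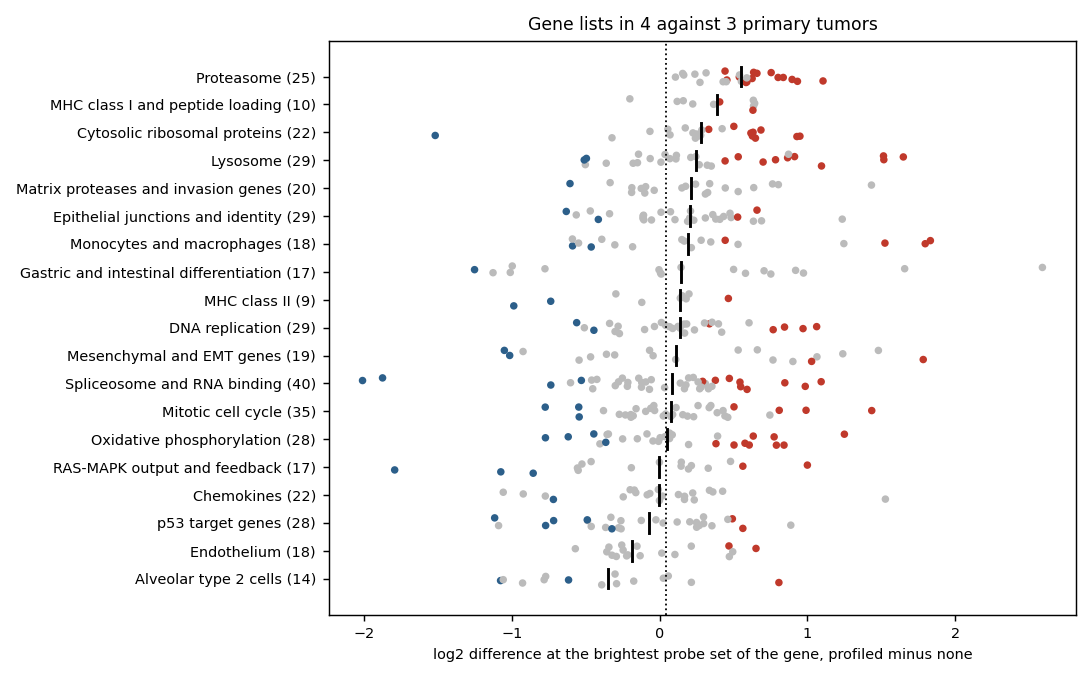
Log2 difference (mice 1 to 4 minus mice 5 to 7) of each member of 19 gene lists at the brightest probe set of the gene, with red and blue points for members higher or lower at an unadjusted p under 0.05, grey for the rest, a bar at the list median and a dotted line at the median of all genes (0.05). Every one of the 25 proteasome points lies above 0, and the other lists have points on both sides.

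The 9 metastases took no part in the main fit of the primary tumors and were set beside it at the 231 called probe sets. On a scale with 0 at the mean of mice 5 to 7 and 1 at the mean of mice 1 to 4, the median position was 0.96, 0.90 and 1.11 in the liver and body wall metastases 19, 20 and 21 of mouse 1 and 0.98 in the liver metastasis 23 of mouse 2. In mouse 3 it was 1.14 for the heart (25), 0.41 for the mediastinal lymph node (26) and 0.73 for the body wall (27). In mouse 4 it was 0.35 for the mediastinal lymph node (32) and 0.56 for the parietal pleura (33). Sites are those the study lists. The sample labels give tumor 21 as inguinal and tumor 27 as subcutaneous. The 5 metastases at about 0.90 or more had spike-in levels between 256.2 and 342.0, near those of the primary tumors of mice 1 to 4. Metastases 26 and 32, nearest to mice 5 to 7, had the highest, 1024 and 695.9, although both came from mice 1 to 4. Tumors 27 and 33, at 0.73 and 0.56, had levels of 461.8 and 412.2. At the called probe sets the mean of the 9 was nearer to mice 1 to 4 in 208 of 231 (90%), against 66% over all probe sets. The 231 were chosen for a difference between the primary groups, so the 2 shares are not alike. All 9 metastases also come from mice 1 to 4. Cfi ranged from 81.55 to 2851 and Cdkn2a from 69.12 to 541.6 over the 9 metastases. The Gapdh 3′ control was also lowest in tumors 32, 33 and 26 among the metastases (2635, 3233 and 3704). The Gapdh 3′ to 5′ ratio had another order. It was 1.412, 1.172 and 1.213 in tumors 32, 33 and 26, and 1.255 and 1.291 in tumors 19 and 27. In tumors 20, 21, 23 and 25 it lay between 1.012 and 1.086. The mediastinal lymph node site thus went with the highest spike-in levels, whereas within mouse 3 the levels ran from 256.2 to 1024. The part of site, mouse and array level in the positions was not tested.

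**Figure D5:**
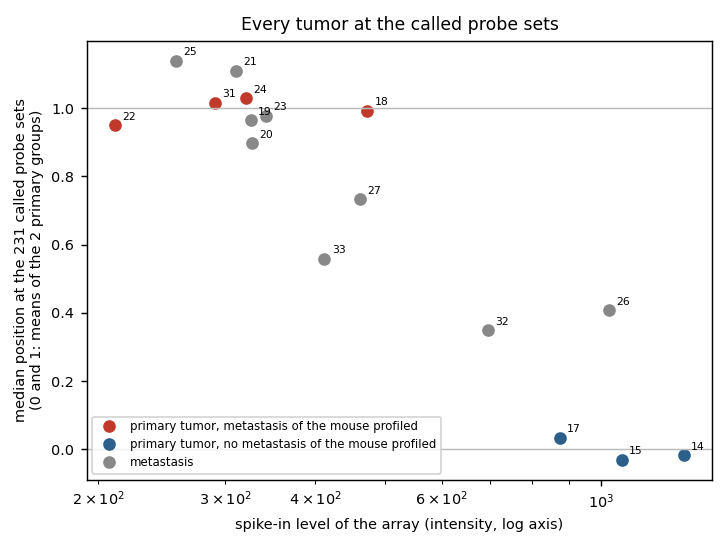
Median position of every tumor at the 231 called probe sets (vertical axis, with 0 and 1 at the means of the primary tumors of mice 5 to 7 and mice 1 to 4) against the spike-in level of its array (horizontal log axis), 1 point per tumor with its number. Primary tumors sit at 0 or 1 because they defined the scale, whereas metastases 26 and 32, with spike-in levels of 1024 and 695.9, sit at 0.41 and 0.35.

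Sex differs by 1 tumor between the groups and was read from the array. Xist, the RNA that silences an X chromosome in female cells, read 487.3 in tumor 15 on 1 of its 3 probe sets. The other 6 primary tumors read 25.8 to 54.3 there. The Y-linked Eif2s3y read 4.66 in tumor 15 and 80.3 to 145.5 in the others, so at these probe sets both followed the labels. The leading Xist probe set had means of 150.8 in the all-male group and 464.7 in the group with tumor 15. Y-linked Uty was higher in the group with tumor 15 on its leading probe set (−0.49 ± 0.19). Y-linked Kdm5d was lower there on its leading probe set (0.54 ± 0.26) but higher on its brightest (−0.29). These group values do not show tumor 15 by itself. Of the 231 called probe sets 2 (0.866%) lie on the X chromosome, against 2.95% of all, and 0 on the Y.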

How the data were processed

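Total RNA of dissected tumors, 1 per array, was hybridized by the authors to Affymetrix Mouse 430A 2.0 arrays. The authors quantified scans in Microarray Suite and computed expression values in dChip with its perfect match minus mismatch model and invariant set normalization, and the deposited table holds these intensity values on a linear scale, already normalized. It has 22690 probe sets, of which 64 controls were used only as array measures. Of the 22626 others, 20380 carry 1 gene symbol in the platform annotation, 691 several and 1555 none. No columns were left without a sample.

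Values under 1 were raised to 1 and log2 values fitted in limma 3.58.1 (R 4.3.3) to the 7 primary tumors with 5 residual degrees of freedom, with Benjamini-Hochberg adjustment over all 22626 probe sets. There is 1 array per tumor and 1 primary tumor per mouse, so p-values measure the spread between these 7 mice, and the number of arrays limits the precision. The methods of the study state a paired test only, which cannot be used between mice. Alternatives were the floor, a filter on dim probe sets, normalization, all 16 tumors with the mouse as a random block, sex, the variance model, the methods' t-test without pairs, averaging over probe sets and leaving out each tumor. The spike-in covariate was added after seeing the data. Genes were named by rule: the 12 largest called differences in each direction with all probe sets of 1 sign and a mean in the higher group at or above the 25th percentile of all values, genes with 2 or more called probe sets, the 5 disagreeing genes with the brightest opposite probe set, and called members and the 3 brightest of each described list. List members outside these, and Luc7l2 and Zfp207 among the disagreeing genes, were chosen after their values were seen. The groups and lists were chosen with earlier results of these data known. The fit was tested on simulated data.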

Additional observations from a re-analysis of the deposited data

Results flagged for a closer look

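In the 4 primary tumors of mice 1 to 4, 3 of 44 named genes had 1 tumor far from the other 3, with a gap to its neighbor, as a share of the group's range of log2 values, above the critical value of Dixon's test. For Ctsa the share was 0.877 and the high tumor was 24. For Luc7l2 it was 0.945 and for Rbfox2 0.904, and in both the low tumor was 22. Chance gives about 5% such gaps, and 0 of 43 list means had one.

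The spike-in controls were 3.44-fold higher in the primary tumors of mice 5 to 7 than in those of mice 1 to 4. They entered a comparison of genes only as the covariate that was added after seeing the data.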

How the results depend on the processing

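The count of 231 probe sets at an adjusted p of 0.05 moved most, and the cause was not tested. It was 627 and 371 with the floor at the 10th and 25th percentile, 1033 with dim probe sets left out (17404 tested), 45 with all 16 tumors, 0 with sex as a covariate (4164 at an unadjusted p under 0.05), 1045 with a variance trend and robust prior, 10 by the methods' t-test, 6 with probe sets averaged by gene, 1 with the spike-in covariate and 0 to 42 with 1 tumor left out. Sex as a covariate gives tumor 15 no weight, since it is the only female. The count of 1902 at p under 0.01 became 866 with averaged probe sets (12393 tested), 325 with the spike-in covariate and 1225 (without tumor 31) to 1612 with 1 tumor left out, and 1623 by the methods' t-test. Of the called probe sets 67.1% were higher in mice 1 to 4, against 53.2% after quantile normalization and 55.3% after centring. At p under 0.01 the shares were 69.2%, 53.6% and 56.4%, and the median of all probe sets went from 0.06 to −0.02 under both. Calls kept at quantile normalization were 188 of 231.

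Among named genes 7 of 44 changed sign, all with the spike-in covariate: Aplnr 0.35, Atp7a 0.35, Ccdc166 −0.11, H2-Aa 0.20, Hid1 −1.37, Psmd2 −0.11 and Rgs5 0.044. With 1 tumor left out, all 44 lost their call at tumors 18, 22, 24, 31 and 15, 43 at tumor 14 and 39 at tumor 17.

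List medians that moved by more than the spread between tumors, with the spike-in covariate, were proteasome 0.20, ribosomal proteins 0.16, oxidative phosphorylation −0.15, MHC class II 0.29, mitosis −0.28, replication −0.24, RAS-MAPK −0.37, epithelial 0.37, chemokines 0.20, endothelium 0.48 and macrophages 0.46. After quantile normalization and after centring, ribosomal proteins gave 0.22 and 0.20, the spliceosome 0.0022 and 0.0037, and MHC class II 0.027 and 0.057. With sex as a covariate the spliceosome gave 0.016, MHC class II 0.063 and RAS-MAPK −0.16, and with averaged probe sets MHC class II gave −0.030. With 1 tumor left out ribosomal proteins ranged from 0.28 to 0.34, oxidative phosphorylation from −0.0061 to 0.15, the spliceosome from 0.016 to 0.15, MHC class II from 0.063 to 0.14 and RAS-MAPK from −0.19 to −0.018. The agreement of probe sets was 49.3% with all probe sets and 56.8% of 118 genes with bright ones. No paired analysis was possible because the 2 groups come from different mice. Probe sets near background limit what intensity can show.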
